A study of Mus musculus with 3 samples.

Results

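Condensin and the SMC5/6 complex belong to the SMC (structural maintenance of chromosomes) family, as does cohesin, the complex that was depleted in these cells. The 10 genes described here encode 8 condensin subunits (Smc2, Smc4, Ncapd2, Ncapg, Ncaph, Ncapd3, Ncapg2 and Ncaph2) and the SMC pair of the SMC5/6 complex (Smc5 and Smc6). They were chosen by symbol, and all 10 were found among the 52636 genes of the count tables. SMC proteins are long ATPases that pair into V-shaped dimers, and a kleisin subunit closes each dimer into a ring that can entrap DNA. Condensin I and condensin II share the SMC2–SMC4 dimer and differ in their kleisin and in the HEAT-repeat subunits bound to it. Condensin II resides in the nucleus throughout the cell cycle, whereas condensin I gains access to chromosomes once the nuclear envelope has broken down, and both shape the mitotic chromosome. SMC5/6 acts in DNA repair and in the completion of replication.

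The data are Smart-SCRB profiles, a plate-based single-cell RNA sequencing assay in which every well carries a barcode and every captured transcript a unique molecular identifier (UMI), read from the 3′ end. The cells were JM8.N4 mouse embryonic stem (ES) cells, a line of the C57BL/6N strain, kept on gelatin and free of feeders in serum with LIF and the 2i inhibitors PD0325901 and CHIR99021. In control and treated cells alike, RAD21, a cohesin subunit, had been fused to the auxin-induced degron (AID) by CRISPR/Cas9 editing, so both groups carry the tagged allele, and the methods describe a single previously made degron line. Treated cells received the auxin indole-3-acetic acid at 500 µM for 6 h and control cells received none, and the procedure was carried out in 3 replicates.

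Of 1536 wells on 16 plates, 1335 had more than 2600 detected genes, and 1167 of these entered the comparisons. Replicate 1 gave 168 control and 169 auxin-treated cells, replicate 2 gave 371 and 290, and replicate 3 gave 85 and 84. The other 168 cells sat on 2 of the 4 plates of replicate 3, for which the deposited annotation and the source values of the study name opposite conditions. The 6 sets of cells, 1 per replicate and condition, summed to between 6064936 and 50448320 UMIs, with median UMI counts per cell of 72317 to 187088. Each plate held cells of 1 condition, so that plate and condition cannot be told apart within a replicate, and 0 of 1536 wells had the same counts as another well. Rad21 mRNA lay between 19.3 and 45.2 CPM, the UMIs of a gene scaled to a common total, which does not test the labels because the degron acts on the protein. The 8 ES cell markers summed to between 2246 and 9653 CPM, lowest in replicate 2 (3735 in control and 2246 in auxin-treated cells). Sox2 was listed at 0 in replicates 2 and 3, and Pou5f1 had 273 and 228 CPM in control and auxin-treated cells of replicate 1 but 5.81 to 12.5 CPM in replicates 2 and 3. Other markers were low in replicate 2 alone, such as Nanog, with 58.6 and 38.9 CPM there against 495 to 563 CPM in replicates 1 and 3, and Tfcp2l1, with 4.10 and 2.52 CPM against 239 to 329 CPM. Pou5f1, Esrrb and Klf4 were lower with auxin in all 3 replicates, Klf4 with 141, 2.75 and 72.7 CPM in control and 64.5, 1.17 and 27.5 CPM with auxin. Of all genes tested, 13.6% were lower in all 3. Other ES cell markers did not follow. Zfp42 was higher with auxin in replicates 1 (275 and 303 CPM) and 3 (184 and 240 CPM), and Nanog in replicate 1 (496 and 563 CPM). Tfcp2l1 (300 and 329 CPM) and Dppa5a (6308 and 6887 CPM) were higher with auxin in replicate 3. Marker sums of primitive endoderm (8.21 to 24.8 CPM) and fibroblasts (1.51 to 8.90 CPM) were low in all 6 sets. The summed level of 4 markers of 2-cell-like cells was 0.222, 0.0204 and 0.165 CPM in control and 17.3, 0.0595 and 3.74 CPM with auxin in replicates 1, 2 and 3, thus low but higher with auxin in replicates 1 and 3. Each control sum rests on a few UMIs of 1 gene (Zscan4c in replicates 1 and 3, Usp17lc in replicate 2). The auxin sum of replicate 2 likewise rests on a few UMIs of Zscan4d among 50448320 UMIs, so that replicate 2 gives no direction. The part of these marker differences in the results was not tested. The 0 of Sox2 is part of a wider pattern, in which 99 genes with more than 1000 UMIs in replicate 1 were at 0 in replicates 2 and 3. The opposite was seen for 57 genes, whereas each of the 10 subunit genes was counted in every set.

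The subunit genes are spread over 9 chromosomes (GENCODE positions, mm10). Smc2 lies at chr4:52439243-52488260 and Smc4 at chr3:69004738-69034623, both on the plus strand. Of the condensin I genes, Ncapd2 lies at chr6:125168007-125191701 on the minus strand, Ncapg at chr5:45669919-45700546 on the plus strand and Ncaph at chr2:127103809-127133954 on the minus strand. The condensin II genes Ncapd3 (chr9:27030175-27095315), Ncapg2 (chr12:116405402-116463731) and Ncaph2 (chr15:89355719-89372826) are all on the plus strand. Smc5 lies at chr19:23206451-23273897 on the minus strand, and Smc6 at chr12:11265886-11319785 on the plus strand. Exons of Ncapd2 overlap those of Scarna10 and Gm28967 on the same strand, and exons of Ncapg and Ncaph2 overlap genes of the opposite strand (Lcorl, and Sco2 and Tymp), and how the authors' counting divided reads in such stretches, or whether it used strand, is not given in the sources used here.

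Promoters of genes expressed in G2 and mitosis often carry a CHR element (TTTGAA or TTCGAA), the binding site of the MuvB complexes, together with CCAAT boxes bound by NF-Y. Both strands of the 250 bases before each RefSeq start (GRCm38.p6, the assembly of mm10) were searched for these letters, of which TTCGAA reads the same on both strands. The table held windows for 9 of the 10 genes, without Smc4. The sequences below are those of 3 condensin genes whose windows held both elements, of Ncaph, whose window held none of the letters and whose level was higher in cells with high G2/M markers (values below), and of Smc6, whose window held both forms of the CHR letters and whose level had no constant direction. Each is given 5′ to 3′ in the direction of the gene, ends before the annotated GENCODE start, and has matches in capitals, with TTCAAA and ATTGG marking matches on the opposite strand.
Smc2 (chr4:52438971-52439220, plus strand): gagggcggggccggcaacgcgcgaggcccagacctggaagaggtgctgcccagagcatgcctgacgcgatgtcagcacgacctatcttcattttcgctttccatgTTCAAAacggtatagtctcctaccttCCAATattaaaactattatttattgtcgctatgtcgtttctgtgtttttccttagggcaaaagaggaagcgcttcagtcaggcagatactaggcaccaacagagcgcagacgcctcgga
Ncapd2 (chr6:125191702-125191836, minus strand): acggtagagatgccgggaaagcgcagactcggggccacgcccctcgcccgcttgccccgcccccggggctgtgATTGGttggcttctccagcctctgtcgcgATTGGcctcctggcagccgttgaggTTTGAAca
Ncapg (chr5:45669675-45669918, plus strand): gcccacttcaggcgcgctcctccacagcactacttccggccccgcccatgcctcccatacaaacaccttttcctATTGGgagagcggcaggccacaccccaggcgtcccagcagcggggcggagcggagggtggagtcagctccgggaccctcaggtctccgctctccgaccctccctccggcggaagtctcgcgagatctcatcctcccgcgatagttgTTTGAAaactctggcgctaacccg
Ncaph (chr2:127133955-127134204, minus strand): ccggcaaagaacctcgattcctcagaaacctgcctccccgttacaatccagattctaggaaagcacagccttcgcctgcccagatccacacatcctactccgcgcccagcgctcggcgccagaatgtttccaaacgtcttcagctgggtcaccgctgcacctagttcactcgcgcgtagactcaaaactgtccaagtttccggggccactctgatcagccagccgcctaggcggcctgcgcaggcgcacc
Smc6 (chr12:11265636-11265885, plus strand): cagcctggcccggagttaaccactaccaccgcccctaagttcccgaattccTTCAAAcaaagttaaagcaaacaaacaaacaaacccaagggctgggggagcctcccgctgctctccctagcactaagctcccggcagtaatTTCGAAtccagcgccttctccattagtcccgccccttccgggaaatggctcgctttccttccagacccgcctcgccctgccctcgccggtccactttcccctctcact

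Relative to the RefSeq start, the CHR letters began 145 bases upstream in Smc2 (opposite strand), 123 in Ncapd2 and 30 in Ncapg, and the Smc6 matches began 199 and 108 bases upstream. Of the windows not shown, that of Ncapg2 held TTTGAA (18 bases upstream), that of Ncaph2 held TTCGAA (22 bases upstream), the second start of Ncapd3 had TTTGAA on the opposite strand at 249 bases, and the first start of Ncapd3 and the window of Smc5 held none of the letters. The Smc5 window (chr19:23272600-23272849) and the second Ncapd3 window (chr9:27060166-27060415) lie inside the GENCODE genes. They therefore do not describe the bases before the GENCODE starts of Smc5 and Ncapd3. Over all 32851 promoter windows of the table, 16.0% held TTTGAA, 1.34% TTCGAA and 33.8% CCAAT, and 6.02% held either CHR form together with CCAAT. A match describes the letters of a window and does not locate a bound factor.

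All 10 subunit genes were expressed, over a wide range of levels. UMIs at the 3′ end count each captured transcript once whatever its length, so that CPM does not grow with transcript length. Whether capture and read assignment were alike between genes was not tested, and the order below is that of counted levels. Averaged over the 6 sets, Smc4 had the highest level with 438 CPM, followed by Smc2 (264 CPM), Ncapd2 (225 CPM), Smc6 (209 CPM), Smc5 (121 CPM), Ncapg (104 CPM), Ncaph2 (101 CPM), Ncapd3 (81.9 CPM), Ncaph (63.2 CPM) and Ncapg2 (16.8 CPM). Smc4 thus exceeded 99.1% and Ncapg2 81.9% of the 38861 genes with a count. Only 3 neighbours in this order had ranges over the 6 sets that did not overlap, namely Smc4 above Smc2, Smc6 above Smc5 and Ncaph above Ncapg2. The genes of the dimer partners SMC2 and SMC4 therefore differed in counted level, with Smc4 above Smc2 in 6 of 6 sets. In condensin II the HEAT-repeat subunit gene Ncapg2 was counted far below Ncapd3 and Ncaph2.

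**Figure D1:**
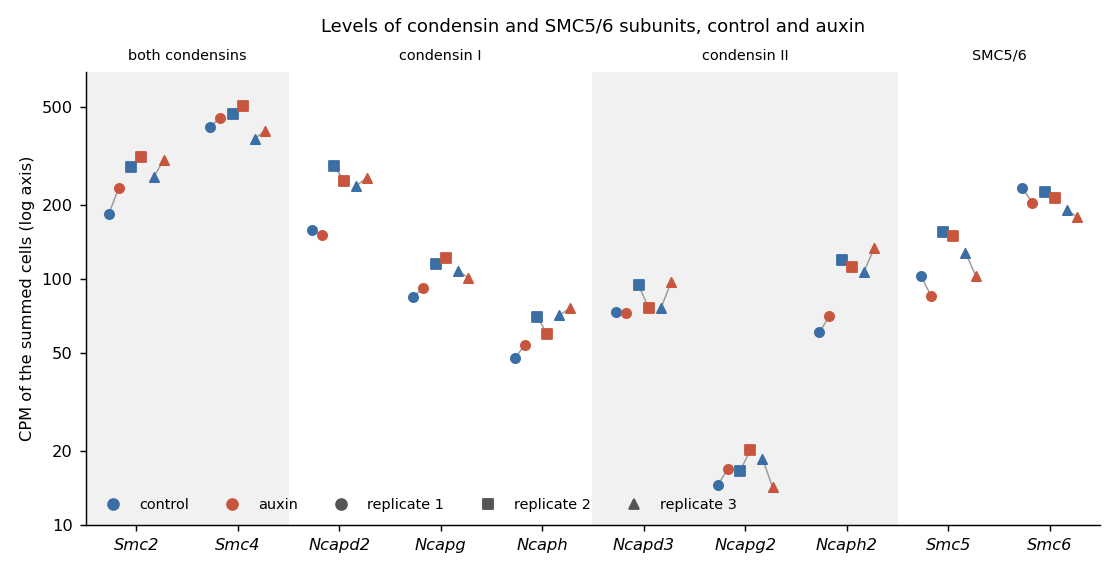
Level of each subunit gene in CPM of the summed cells (log axis), with 1 point per replicate in control and in auxin-treated cells. Control and auxin points of a gene overlap, while genes range from 14.2 CPM (Ncapg2) to 509 CPM (Smc4).

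The first comparison asked whether 6 h of cohesin loss changed the transcript levels of the other SMC complexes. No subunit gene was called in the test of all genes. On the plates whose condition is settled, 2 of the 10 genes (Smc2 and Smc4) were higher and 2 (Smc5 and Smc6) lower with auxin in all 3 replicates, which is near the shares of all genes tested (15.6% and 13.6%). For Smc2, control cells had 185, 285 and 260 CPM in replicates 1, 2 and 3 and auxin-treated cells 236, 316 and 305 CPM. For Smc4, the values were 418, 468 and 374 CPM in control and 454, 509 and 402 CPM in auxin-treated cells. Each auxin value lay above the control value of its own replicate, but the groups overlapped because the replicates differed more than the conditions. Expressed as log2(auxin/control), Smc2 differed by 0.35, 0.15 and 0.23 and Smc4 by 0.12, 0.12 and 0.11 in replicates 1, 2 and 3.

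Smc5 had 103, 155 and 128 CPM in control and 85.7, 150 and 103 CPM in auxin-treated cells, log2 ratios of -0.27, -0.05 and -0.31. Smc6 had 235, 227 and 192 CPM in control and 205, 214 and 179 CPM in auxin-treated cells, log2 ratios of -0.19, -0.08 and -0.10. Both were lower with auxin within each replicate, again with overlapping groups, but for each gene this depended on leaving out the 2 plates of replicate 3. With these placed as in the source values, Smc5 had 114 CPM in control and 129 CPM with auxin in replicate 3 (fitted log2 fold change of -0.08 instead of -0.21 by edgeR). With the annotated placement, Smc6 had 177 and 187 CPM there (-0.11 instead of -0.15). Smc2 and Smc4 stayed higher with auxin in 3 of 3 replicates under both placements.

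The condensin I genes went in no single direction. Ncapd2, the HEAT-repeat subunit of condensin I, had 159, 288 and 240 CPM in control and 152, 252 and 259 CPM in auxin-treated cells. Ncapg, the other HEAT-repeat subunit, had 84.9, 116 and 108 CPM in control and 92.0, 122 and 101 CPM with auxin. Ncaph, the kleisin, had 47.7, 70.5 and 71.4 CPM in control and 54.1, 59.6 and 76.1 CPM with auxin. For each of these genes at least 1 replicate opposed the others, and the groups overlapped.

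The condensin II genes also went in no single direction. Ncapd3 had 73.6, 94.3 and 76.2 CPM in control and 73.2, 76.3 and 97.7 CPM in auxin-treated cells, lower in replicate 2 and higher in replicate 3. Ncapg2 had 14.5, 16.6 and 18.6 CPM in control and 17.0, 20.1 and 14.2 CPM with auxin, so that replicate 3 opposed the other 2. Ncaph2, the kleisin of condensin II, had 60.8, 119 and 107 CPM in control and 70.8, 112 and 134 CPM with auxin. Across the 10 genes, 0 had control and auxin values that did not overlap, as against 2.65% of all genes tested.

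In edgeR's quasi-likelihood test on the 6 sums, with Benjamini-Hochberg adjustment, 0 of 10 subunit genes and 0 of 17514 genes passed an adjusted p of 0.05 (0% of all genes called). An unadjusted p under 0.05 was reached by 33 genes, and DESeq2 likewise called 0 genes, with 66 at that unadjusted p. Neither fit held a term for the replicate, although control and auxin sums of a replicate deviated together (correlations of 0.656 to 0.866). With the replicate as a block, 1109 of 19793 genes reached that unadjusted p in edgeR. The 0 calls of the fit without the block therefore do not show that levels were unchanged. The largest log2 fold changes were 0.23 ± 0.16 (SE) for Smc2 and -0.21 ± 0.22 for Smc5, and the other 8 lay between -0.15 ± 0.26 (Smc6) and 0.13 ± 0.24 (Ncaph2), with Benjamini-Hochberg adjusted p of 1.0 in edgeR throughout. The median over the 10 genes was 0.01, against -0.0010 over all genes tested. With the replicate as a block, edgeR called 3 of 19793 genes (0.0152%) and DESeq2 73 (0.369%), still with 0 subunit genes in either. In that edgeR fit Smc2 had a log2 fold change of 0.23 ± 0.09 (Benjamini-Hochberg adjusted p = 0.850) and Smc5 of -0.22 ± 0.10 (adjusted p = 0.902). The lowest adjusted p of any setting tried was 0.537 for Smc2 and 0.603 for Smc5. Within replicate 2, which had 4 plates per condition, Smc2 ranged from 273 to 304 CPM on control plates and from 303 to 325 CPM on auxin plates, while Smc5 ranged from 133 to 196 CPM and from 145 to 153 CPM.

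**Figure D2:**
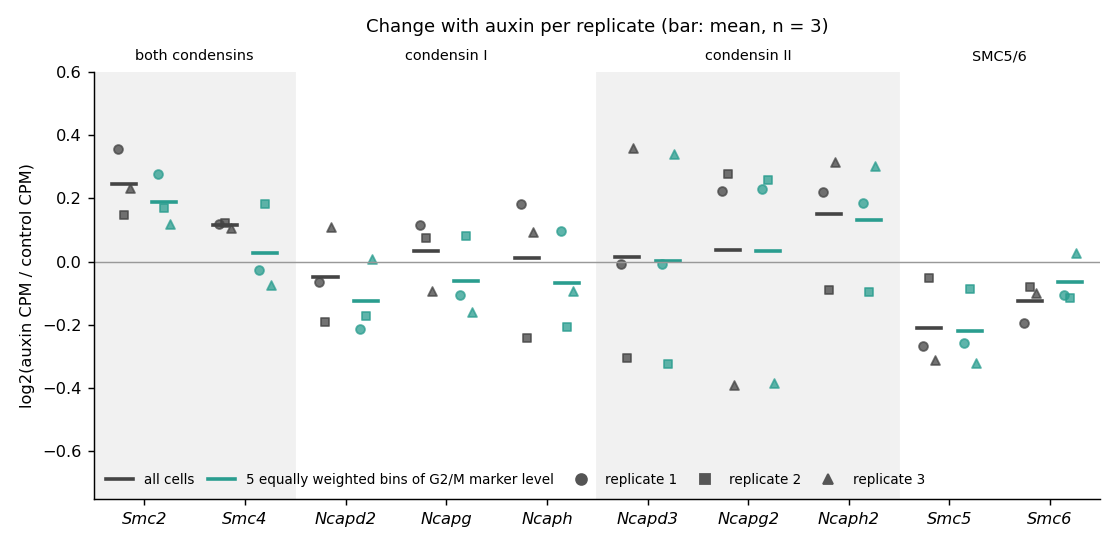
log2 ratio of auxin to control CPM per subunit gene on the plates of settled condition, over all cells (grey) and averaged over 5 equally weighted bins of G2/M marker level (green), with 1 point per replicate and a bar at the mean of the 3 replicates. Over all cells, points of Smc2 and Smc4 lie above 0 and points of Smc5 and Smc6 below 0 in every replicate, whereas over the bins only Smc2 and Smc5 keep all 3 points on 1 side.

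The summed level of 54 G2/M marker genes (from which Smc4 and Ncapd2 had been removed) was not the same in control and auxin-treated cells. It went from 13428 to 15216 CPM in replicate 1, from 15398 to 14799 CPM in replicate 2 and from 11976 to 13999 CPM in replicate 3. Control and auxin-treated cells were therefore also compared at like G2/M marker level, as the ratio of CPM averaged with equal weight over 5 bins of this level per replicate. Smc4, which differed by 0.11 ± 0.01 (SD, n = 3) on the log2 scale over all cells, differed by 0.03 ± 0.14 at like marker level, with replicates 1 and 3 now below 0. Smc2 remained higher in 3 of 3 replicates with 0.19 ± 0.08 and Smc5 lower in 3 of 3 with -0.22 ± 0.12, each with p = 0.25 (exact sign-flip permutation test over replicates, two-sided), the smallest p that 3 replicates allow. The other 7 genes lay between -0.13 (Ncapd2) and 0.13 (Ncaph2) with replicates of both signs, and bins held 12 to 91 cells, fewest in replicate 3.

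Most cells had at least 1 transcript of most subunit genes. Over the 6 sets, Smc4 was detected in 95.8 to 98.9% of cells, Ncapd2 in 93.5 to 97.6%, Smc6 in 92.9 to 95.3%, Smc2 in 83.3 to 97.6%, Ncaph2 in 86.3 to 94.9% and Smc5 in 73.8 to 95.7%. Ncapg (71.4 to 86.3%), Ncaph (64.3 to 84.7%), Ncapd3 (66.1 to 81.9%) and Ncapg2 (26.2 to 48.6%) were detected less widely. Ncaph2 was found in more cells than Ncapg in every set although their CPM overlapped. Thinning each cell to 20000 UMIs, which left out 8 control and 13 auxin-treated cells of replicate 2 and 1 and 5 of replicate 3, gave 91.1 to 98.3% for Smc4 and 13.9 to 24.2% for Ncapg2. In 118 wells with fewer than 1000 UMIs (median 324.5), which stand in for background because no cell type without these genes was sampled, the shares were between 0% (Ncapd3, 0 of 118 wells) and 7.63% (Smc4, 9 wells).

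Without thinning, the largest mean changes in detection were those of Smc5 and Ncaph. In replicate 1, Smc5 was detected in 73.8% of control and 75.1% of auxin-treated cells. In replicate 2 it was detected in 95.7% (95% exact binomial interval 93.1 to 97.5%) and 89.7% (85.6 to 92.9%), and in replicate 3 in 87.1% (78.0 to 93.4%) and 75.0% (64.4 to 83.8%). The Ncaph shares of replicates 1, 2 and 3 were 64.3, 82.5 and 84.7% in control and 71.6, 69.0 and 76.2% in auxin-treated cells. Both were lower with auxin in replicates 2 and 3 and higher in replicate 1. The mean change was -5.58 ± 6.71 percentage points (SD, n = 3) for Smc5 and -4.91 ± 10.9 for Ncaph (p = 0.5 for each, exact sign-flip permutation test, two-sided), and the p of the 10 genes lay between 0.5 and 1. The intervals cover counting error only. In cells thinned to 20000 UMIs the mean change was -6.81 percentage points for Smc5, -0.13 for Ncaph and 5.62 for Smc2. Ncapd2 was the only gene of the 10 with 1 direction in all 3 replicates after thinning, detected in fewer auxin-treated cells, with changes of -4.06, -3.79 and -1.64 percentage points (mean -3.16 ± 1.32, SD, n = 3, p = 0.25, exact sign-flip permutation test, two-sided, the smallest p that 3 replicates allow).

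**Figure D3:**
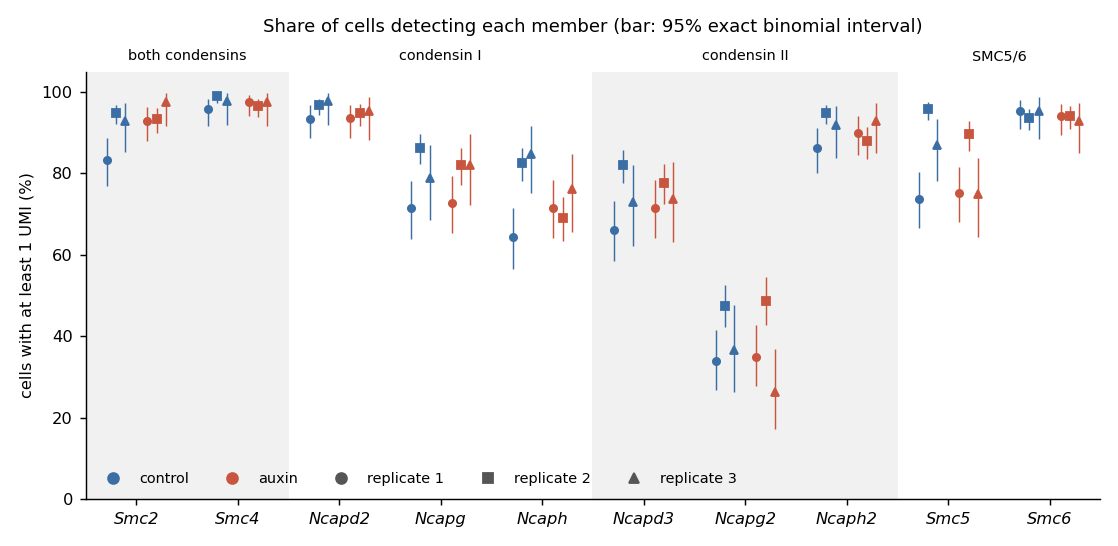
Percentage of cells with at least 1 UMI of each subunit gene, per replicate and condition, with 95% exact binomial intervals. Smc4, Ncapd2 and Smc6 stay above 92% in all 6 sets, and Ncapg2 stays below 49%.

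The second comparison asked how the subunit genes depend on the G2/M marker level. The cells of every plate were ranked by summed G2/M marker CPM and divided into 3 equal groups, and the highest (high group) was compared with the lowest (low group), with 28 to 122 cells in each group of a replicate and condition. Both genes of the shared dimer and all 3 of condensin I had higher CPM in the high group in every replicate of both conditions, as did Ncaph2, the kleisin of condensin II, whereas Ncapd3, Ncapg2, Smc5 and Smc6 had pairs of either direction.

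Smc4 had 584, 549 and 465 CPM in the high group and 255, 362 and 313 CPM in the low group of control cells in replicates 1, 2 and 3. In auxin-treated cells it had 580, 614 and 524 CPM in the high group and 294, 335 and 275 CPM in the low group. The summed values of the high and low groups did not overlap under either condition. Smc2 had 207, 303 and 300 CPM against 117, 244 and 221 CPM in control, and 259, 375 and 338 CPM against 183, 266 and 212 CPM in auxin-treated cells. It was higher in the high group in 6 of 6 pairs, with overlap across replicates.

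Among the condensin I genes, Ncapd2 had 187, 318 and 275 CPM against 93.9, 264 and 195 CPM in control, and 203, 300 and 288 CPM against 92.9, 201 and 193 CPM with auxin. Ncapg had 117, 125 and 122 CPM against 42.4, 112 and 91.9 CPM in control, and 139, 145 and 114 CPM against 45.4, 91.1 and 72.2 CPM with auxin. Ncaph had 62.9, 84.2 and 90.2 CPM against 29.0, 57.3 and 65.2 CPM in control, and 68.2, 71.1 and 82.0 CPM against 41.0, 36.3 and 46.3 CPM with auxin. All 3 genes were higher in the high group in 6 of 6 pairs, and the contrast was widest in replicate 1 for Ncapd2 and Ncapg under both conditions.

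In condensin II, Ncaph2 had 66.3, 134 and 117 CPM against 58.7, 114 and 85.4 CPM in control, and 78.0, 121 and 135 CPM against 59.0, 111 and 122 CPM with auxin. It was thus higher in the high group in 6 of 6 pairs. Ncapd3 had 61.7, 86.1 and 77.4 CPM against 62.2, 103 and 70.0 CPM in control and was lower in the high group in 3 of 3 replicates with auxin (62.9, 83.4 and 93.2 CPM against 72.4, 85.3 and 106 CPM). Ncapg2 had 15.9, 14.0 and 20.6 CPM against 6.98, 18.9 and 19.6 CPM in control, and 15.9, 23.0 and 11.2 CPM against 21.8, 19.2 and 15.7 CPM with auxin. Its pairs split in direction under both conditions.

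Smc5 had 95.3, 158 and 120 CPM in the high and 87.0, 175 and 133 CPM in the low group of control cells, and 85.0, 159 and 84.9 CPM against 92.7, 149 and 78.9 CPM with auxin. Smc6 had 232, 233 and 157 CPM against 209, 251 and 174 CPM in control, and 170, 222 and 186 CPM against 270, 192 and 212 CPM with auxin. Neither gene was on 1 side in all replicates of a condition.

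**Figure D4:**
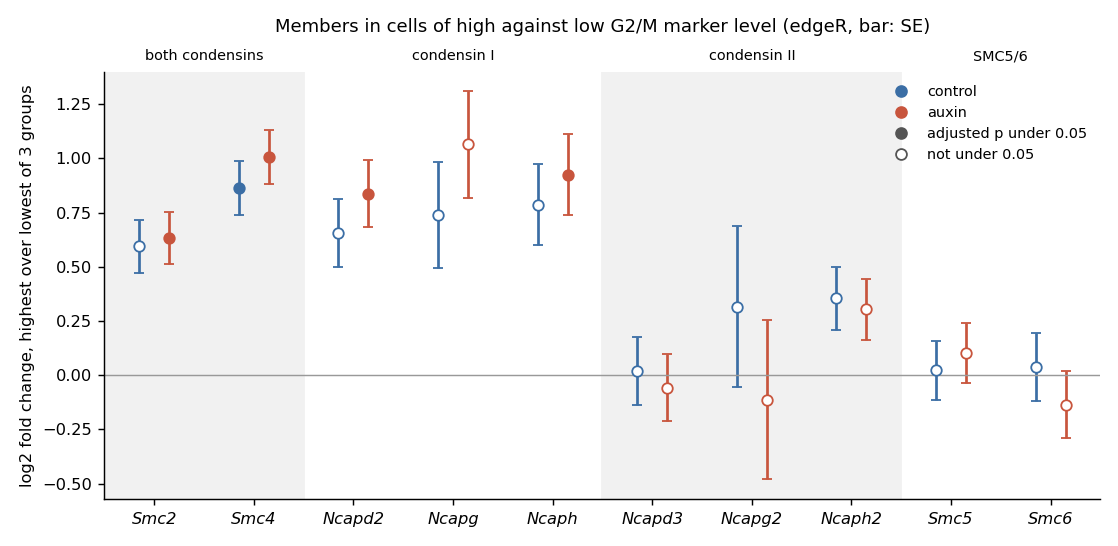
log2 fold change of each subunit gene between the highest and lowest of 3 equal groups of cells by G2/M marker level, in control and in auxin-treated cells (edgeR estimate, bars show the SE). Smc2, Smc4, Ncapd2, Ncapg and Ncaph lie between 0.59 and 1.06, and Ncapd3, Smc5 and Smc6 between -0.14 and 0.10.

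In edgeR's quasi-likelihood test, paired by replicate and condition, 1 of 10 subunit genes passed a Benjamini-Hochberg adjusted p of 0.05 in control cells, where 58 of 17281 genes (0.336%) were called higher and 2 (0.0116%) lower. It was Smc4, with a log2 fold change of 0.86 ± 0.12 (SE, adjusted p = 0.0064 in edgeR). In auxin-treated cells 4 of 10 passed, where 93 genes (0.538%) were called higher and 8 (0.0463%) lower. These were Smc4 (1.01 ± 0.12, adjusted p = 0.0014), Ncapd2 (0.84 ± 0.16, adjusted p = 0.0268), Smc2 (0.63 ± 0.12, adjusted p = 0.0312) and Ncaph (0.93 ± 0.19, adjusted p = 0.0472), all by edgeR with Benjamini-Hochberg adjustment. The 54 markers that defined the groups are among all genes tested and were set apart by the split itself. They made up 32 of the 58 genes called higher in control and 38 of the 93 with auxin. In control cells the same edgeR fit gave 0.79 ± 0.19 for Ncaph (adjusted p = 0.148), 0.66 ± 0.16 for Ncapd2 (adjusted p = 0.147), 0.59 ± 0.12 for Smc2 (adjusted p = 0.0676) and 0.74 ± 0.25 for Ncapg (adjusted p = 0.584). Ncapg had 1.06 ± 0.25 with auxin (edgeR, adjusted p = 0.112). Ncaph2 had 0.35 ± 0.14 in control and 0.30 ± 0.14 with auxin, and 0 of the 10 genes were called lower under either condition. The median over the 10 genes was 0.47 under each condition, against 0.0069 and 0.0097 over all genes tested. Higher values in 6 of 6 pairs were found for 6 of 10 subunit genes and for 2.82% of all genes, and high and low values without overlap for 2 in control (Smc4 and Ncapg, all genes 1.74%) and 4 with auxin (Smc4, Ncapd2, Ncapg and Ncaph, all genes 1.79%).

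Without replicate 1, the log2 fold change of Ncapg in control cells fell from 0.74 to 0.34. The call of Smc4 in control cells was lost without replicate 1 (0.65, edgeR adjusted p = 0.0894), and in auxin-treated cells those of Smc2 (adjusted p of 0.0754, 0.153 and 0.216) and Ncaph (0.0984, 0.494 and 0.171) were lost without any 1 of replicates 1, 2 and 3 and that of Ncapd2 without replicate 1 (0.0918) or 3 (0.0711), whereas Smc4 kept its call with auxin in all 3 (adjusted p of 0.0020, 0.0026 and 0.0092). The high group also had more UMIs per cell in 6 of 6 pairs (medians of 78928 to 195924 against 56696 to 119881), and with every cell thinned to 20000 UMIs Smc4 was called under both conditions (0.91 and 0.98) and Ncapg joined the other 4 with auxin (1.25, edgeR adjusted p = 0.0031). DESeq2 called Smc4, Smc2, Ncapd2 and Ncaph in control cells and these and Ncapg with auxin, while without the pairing by replicate edgeR called 0 subunit genes. Without the filter on low counts, edgeR called all 5 dimer and condensin I genes under both conditions, including in control Ncapg (adjusted p = 0.0070) and Ncaph (adjusted p = 0.0335). With plates divided at the median, edgeR called Smc4 under both conditions (adjusted p of 0.0254 and 0.0058) and lost the calls of Smc2 (0.0575), Ncaph (0.170) and Ncapd2 (0.214) with auxin, and the log2 fold changes of the 5 dimer and condensin I genes were then 0.37 to 0.82. With DESeq2's size factors in edgeR the call of Ncaph was lost (adjusted p = 0.0622), and with the annotated placement of the replicate 3 plates that of Ncapd2 (edgeR adjusted p = 0.0534).

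More calls with auxin than in control do not show a different dependence, and the difference itself was therefore tested. Of 17281 genes, 0 (0%) differed in their high-against-low contrast between auxin-treated and control cells (345 by edgeR and 354 by DESeq2 reached an unadjusted p under 0.05, and DESeq2 called 0), and 0 of the 10 subunit genes did. The differences of the log2 fold changes ranged from -0.43 ± 0.52 (SE) for Ncapg2 to 0.33 ± 0.35 for Ncapg, and that of Smc4 was 0.14 ± 0.17 (edgeR, Benjamini-Hochberg adjusted p of 1.0 for all 10). The SE of these differences were 0.17 to 0.52, and a p that misses the threshold does not show that the dependence was alike.

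The levels were also summed per complex in 5 bins of G2/M marker level. The summed level of Smc2 and Smc4 was 334 to 556 CPM in the lowest bin of the 6 sets and 791 to 1060 CPM in the highest. Ncapd2, Ncapg and Ncaph together went from 117 to 392 CPM in the lowest bin to 405 to 522 CPM in the highest. For both of these groups the lowest and the highest bin did not overlap. Ncapd3, Ncapg2 and Ncaph2 together had 108 to 237 CPM and 145 to 244 CPM, and Smc5 and Smc6 together had 284 to 427 CPM and 194 to 405 CPM, with overlap in each case. Within a set, the highest bin lay above the lowest in 6 of 6 sets for the shared dimer and for condensin I, in 5 of 6 for condensin II (all but auxin-treated cells of replicate 3, with 229 against 237 CPM) and in 3 of 6 for SMC5/6.

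**Figure D5:**
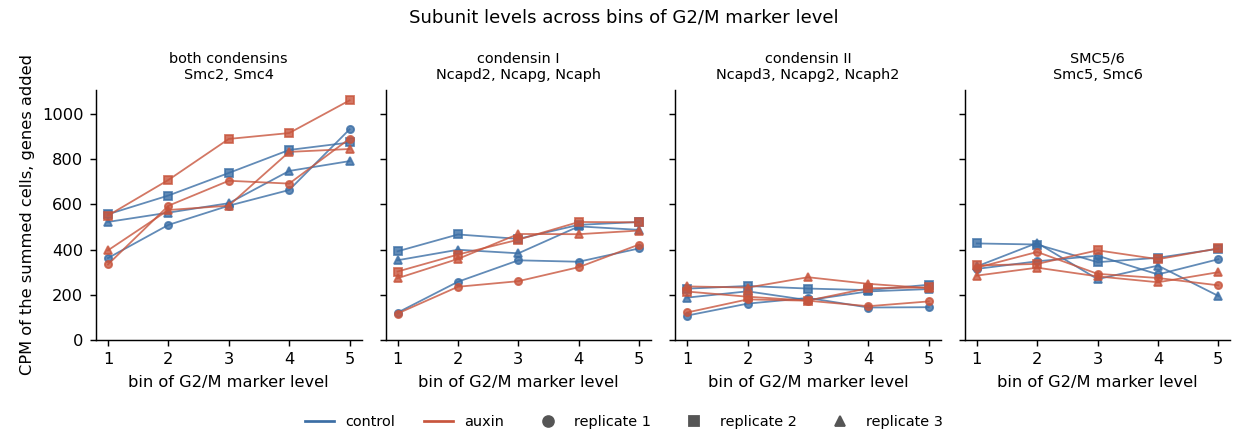
CPM of the summed cells in 5 bins of G2/M marker level, added over the genes of each group, for the 3 replicates of each condition. The panels of the shared dimer and of condensin I rise from the lowest to the highest bin, and those of condensin II and SMC5/6 have overlapping ranges in these bins, with condensin II higher in the highest bin in 5 of 6 sets and SMC5/6 in 3 of 6.

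A G1/S marker list of 43 genes was used in the same manner to see whether the subunits also varied with S phase entry. Of the 10 genes, 0 passed the test in control or auxin-treated cells (all genes called higher 0.231% and 0.133%, lower 0.0751% and 0.0462%). The lowest adjusted p was that of Smc4 in control cells, which was lower in cells with high G1/S markers by a log2 fold change of -0.38 ± 0.10 (edgeR, Benjamini-Hochberg adjusted p = 0.246). The cells with high G1/S markers also had lower summed G2/M markers in 6 of 6 pairs, with 11611, 14297 and 9112 CPM against 12422, 16013 and 14382 CPM in control and 13453, 13317 and 11141 CPM against 14898, 14539 and 15975 CPM with auxin, and the part of this in the Smc4 values was not tested. In auxin-treated cells Smc4 had -0.24 ± 0.10 (edgeR, adjusted p = 0.836), and DESeq2 called Smc4 in control cells with an adjusted p of 0.0040. Smc6 had 0.28 ± 0.12 in control and 0.26 ± 0.12 with auxin (edgeR, adjusted p of 0.603 and 0.857), and Ncapg had 0.35 ± 0.16 in control and 0.0016 ± 0.16 with auxin (edgeR, adjusted p of 0.671 and 1.0).

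Correlations across single cells are given here as a description because cells of a set share a library and differ in depth. The Spearman correlation of CPM with the G2/M marker level, averaged over 6 sets of 84 to 371 cells, was 0.41 for Smc4, 0.30 for Ncapg and Ncaph, 0.29 for Ncapd2, 0.28 for Smc2 and 0.16 for Ncaph2. It was 0.09 for Ncapg2, 0.01 for Ncapd3, -0.01 for Smc5 and -0.02 for Smc6. After thinning to 20000 UMIs the values were 0.40 for Smc4, 0.29 for Ncapd2, 0.24 for Ncapg and 0.23 for Smc2 and Ncaph. Raw counts, which also follow the UMI count of a cell, gave higher values for all 10 genes (0.68 for Smc4 and 0.36 for Smc6).

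Correlations between subunit genes from cell to cell were low. The mean Spearman correlation of thinned counts had a median of 0.036 over the 28 pairs of condensin genes and 0.017 over the 17 pairs with Smc5 or Smc6, and it ranged from -0.13 for Ncaph2 and Smc6 (-0.30 to -0.03 in the 6 sets) to 0.19 for the dimer partners Smc2 and Smc4 (0.09 to 0.30). Counts of each gene varied more than Poisson sampling allows, for which the variance would equal the mean. The ratio of variance to mean in thinned cells, averaged over the 6 sets, was 4.37 for Smc4, 3.76 for Smc2, 3.36 for Ncapd3, 3.31 for Smc6 and 3.19 for Smc5, and it was lowest for Ncaph (2.22) and Ncaph2 (2.01).

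Among 9507 genes that averaged 1 or more counts per cell, the 5 most like the summed condensin genes over the 6 sets were Cenpf, a kinetochore protein (mean Spearman correlation 0.45), Top2a, the DNA topoisomerase of mitotic chromosomes (0.43), Ccnb1, cyclin B1 (0.35), Nusap1, a spindle-associated protein (0.35), and Ube2c, the ubiquitin-conjugating enzyme of the anaphase-promoting complex (0.35). All 5 belong to the G2/M marker list. The median over all genes was 0.0044 and the 99th percentile 0.14. For Smc5 and Smc6 together the most like genes were Hsp90ab1 (0.13), Hspa13 (0.13), Atad2 (0.13), Usp16 (0.13) and Man2c1 (0.12), where the 99th percentile was 0.083, and such weak values in sparse counts single out no gene.

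Genes that work with condensin gave a reference for these values. Of 11 such genes, 0 were called with auxin (edgeR, median log2 fold change 0.07, all genes -0.0010). Between high and low G2/M cells, 5 of the 11 (Top2a, Mki67, Cdk1, Plk1 and Aurkb) are themselves markers of the list. Of the others, 0 were called lower in the high group under either condition. Kif4, the chromokinesin that binds condensin I, had a log2 fold change of 1.26 ± 0.27 in control and 1.71 ± 0.27 with auxin (edgeR, Benjamini-Hochberg adjusted p of 0.0797 and 0.0090), so that it was called higher with auxin. Akap8, a chromatin-bound anchoring protein with 101 to 166 CPM, had -0.29 ± 0.13 and -0.06 ± 0.13 (edgeR, adjusted p of 0.888 and 1.0). Top2a and Cdk1, the mitotic kinase, had the highest levels of the list with 474 to 1159 CPM and 261 to 422 CPM.

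Of 7 partners of SMC5/6, 4 could be tested between control and auxin-treated cells and 6 between G2/M groups, and 0 passed in either. Nsmce1, a RING-domain subunit (171 CPM on average), Nsmce2, the SUMO ligase of the complex (158 CPM), and Slf2, which recruits SMC5/6 to chromatin (44.0 CPM), had the highest levels of the partners counted in all 3 replicates. Nsmce4a, the kleisin of SMC5/6, and Nsmce3, a subunit that binds it, belonged to the genes counted in replicate 1 alone, with 4213 and 4167 UMIs there and 0 in replicates 2 and 3. In control and auxin-treated cells of replicate 1, Nsmce4a had 128 and 98.7 CPM and Nsmce3 had 116 and 108 CPM, above Slf2 (27.4 and 25.6 CPM), and Eid3 had 1 UMI in all.

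Of 4 further SMC genes, 0 were called with auxin. Smc3, a cohesin subunit, had 548 to 819 CPM and lay above Smc4 in 6 of 6 sets, Smc1a, its dimer partner, had 201 to 314 CPM, and Smchd1, a non-canonical SMC protein of the inactive X chromosome, had 89.7 to 137 CPM. Smc1a was higher in the high G2/M group of auxin-treated cells (0.65 ± 0.11, edgeR, Benjamini-Hochberg adjusted p = 0.0165) and had 0.25 ± 0.11 in control cells (adjusted p = 0.880). The difference between these, 0.39 ± 0.16, did not pass the test (edgeR, adjusted p of 1.0). Smc3 had 0.02 ± 0.09 in control and -0.04 ± 0.09 with auxin.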

How the data were processed

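The authors deposited raw UMI counts for every gene and well, made by tagging reads with well barcode and UMI and aligning them to mm10. The aligner, counting program and gene annotation are not given in the sources used here. Per well they also deposited the percent of counts from ERCC spike-ins (medians of 2.15 to 4.55% per set), and per plate the fraction of reads repeating a known UMI (saturation, 0.283 to 0.579). The number of detected genes equalled the recomputed one in 1536 of 1536 wells.

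The 10 genes, the gene lists and the comparisons were chosen with earlier results of these data known, so that no p was adjusted over the 10 genes alone. Named genes were all 10 subunit genes, of each partner list the 3 most abundant and any past the threshold, and the 5 genes most like the condensin and SMC5/6 sums. Genes counted in replicate 1 alone, Rad21 and the cell type markers named were added as checks. The result of 1 gene of a partner list is not reported here.

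Wells with more than 2600 detected genes were kept and 92 ERCC and 11 transgene rows left out. The condition came from the deposited plate annotation, and 2 plates of replicate 3 that the study's source values place in the opposite condition were left out. Counts were summed per replicate and condition, or also by 3 equal groups of cells per plate ranked by the summed CPM of 54 G2/M or 43 G1/S markers (highest against lowest), and tested with edgeR 4.0.16 (TMM, filterByExpr, quasi-likelihood test, Benjamini-Hochberg over all genes tested, threshold 0.05) in R 4.3.3 with limma 3.58.1. These groups were paired within replicate and condition. SE were derived from the log2 fold change and its F value. The scripts were tested on simulated counts.

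The replicate numbers pair the samples. The methods state that the whole procedure was repeated, and deviations of control and auxin sums from their group means correlated with 0.866, 0.822 and 0.656 across 17514 genes in replicates 1, 2 and 3. A fit with the replicate as a block, DESeq2 1.42.0, other scalings, filters and cell weights, other splits of the cells, both placements of the 2 plates and leaving out each replicate were alternatives. Shares carry exact (Clopper-Pearson) 95% intervals, for counting error only. Gene positions came from GENCODE vM21, which held 99.6% of gene identifiers, and promoters from RefSeq (GRCm38.p6). Python 3.11.15 with numpy 2.4.6, scipy 1.17.1, pandas 2.3.3 and matplotlib 3.10.9 was used, with seed 1 for thinning.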

Additional observations from a re-analysis of the deposited data

Results flagged for a closer look

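Data outside the comparisons held subunit transcripts as well. In 118 wells with fewer than 1000 UMIs, 36 UMIs of the 10 genes were counted, in 30 wells (25.4%), equal to 805 CPM of all UMIs of these wells. Among them were 10 UMIs of Smc4 and 7 of Ncapd2, and 0 of Ncapd3.

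On the plates of replicate 3 without a settled condition, the 10 genes summed to 1592 CPM on plate 2 (91 cells, annotated as control and placed with auxin by the source values) and to 1492 CPM on plate 4 (77 cells, the opposite), against 1576 CPM in control and 1671 CPM in auxin-treated cells of the settled plates. Smc5 had 151 CPM on plate 2 and 101 CPM on plate 4, and Smc2 had 265 and 239 CPM.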

How the results depend on the processing

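Without the replicate block, 0 genes were called with auxin under any alternative. With the block edgeR called 3, DESeq2 73 and edgeR on cells thinned to 20000 UMIs 22, and leaving out replicates gave 0 to 32 (with the block 14 without replicate 1, 32 without replicate 2 and 2 without replicate 3). Leaving out replicates under the block, or at like G2/M marker level, and placing the replicate 3 plates under the block were chosen after seeing the data. Both placements of the replicate 3 plates gave 0 genes without the block. With the block, the annotated placement gave 3 genes and the placement of the source values 0. None of the 10 subunit genes was called under any of 18 alternatives, with or without the block.

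For high against low G2/M cells, the count of 60 genes in control became 36 with plates divided at the median, 95 after thinning, 151 with DESeq2, 192 without the count filter, 0 without the replicate block and 26 to 83 when replicates were left out (26 without replicate 1 and 36 without replicate 3), and that of 101 with auxin became 59 at the median, 179 (DESeq2), 216 (no filter), 0 (no replicate block) and 74 to 82. The difference between conditions went from 0 to 6 genes without the filter. The median log2 ratio at like marker level was -0.03, and 0.023 without bins, and the median correlation rose from 0.22 to 0.52 on raw counts. Filter and sample number differ by construction, and otherwise the cause was not tested.

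Some log2 fold changes turned sign, none with a call. With auxin these were Ncapg after thinning (-0.031, with block -0.035), Ncaph with DESeq2 (-0.015, with block -0.026), its size factors (-0.013), the block (-0.0075) and the annotated plates (-0.079, with block -0.081), and Ncapd3 without the filter (0.016). For G2/M in control they were Ncapd3 at the median (-0.092), thinned (-0.056), with DESeq2 (-0.020), its size factors (-0.016) and annotated plates (-0.15), Ncapg2 thinned (-0.0060), Smc5 at the median (-0.15), with DESeq2 (-0.0136) and its size factors (-0.0139), and Smc6 at the median (-0.038) or thinned (-0.054). For G2/M with auxin Ncapd3 turned at the median (0.011) and with annotated plates (0.0086). For G1/S with auxin, Smc4 turned with thinning (0.12) and Ncapg at the median (-0.024), with DESeq2 (-0.020), its size factors (-0.019), without the block (-0.0011) and with annotated plates (-0.037).

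When replicates were left out, sign changes gave ranges with auxin of -0.17 to 0.027 for Ncapd2, -0.0052 to 0.059 for Ncapg, -0.082 to 0.13 for Ncaph, -0.19 to 0.16 for Ncapd3 and -0.071 to 0.22 for Ncapg2. For G2/M in control they gave -0.050 to 0.095 for Ncapd3, -0.14 to 0.68 for Ncapg2, -0.081 to 0.077 for Smc5 and -0.065 to 0.10 for Smc6, and with auxin -0.43 to 0.037 for Ncapg2 and -0.41 to 0.10 for Smc6. The difference for Ncapg2 ranged from -1.11 to 0.18, and the G1/S value of Ncapg with auxin from -0.045 to 0.087. Over all 10 genes, 13 of 100 values of the difference, and 3 (control) and 17 (auxin) of 100 for G1/S, had the opposite sign.

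The limits are as follows. There are 3 replicates, of which replicate 3 has 1 settled plate per condition, and each plate holds 1 condition. Ncapg2, with 2627 UMIs in all, has the widest errors. The G2/M level of a cell rests on transcripts of the same library, and protein amounts were not measured.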
